A study of Mus musculus with 44 samples.

Results

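Prey of a fixed chromosome break gathered in 3 windows of 10 kb that lie in the interior of mouse chromosomes and hold satellite repeats, at chr2:98660001-98670000, chr14:19410001-19420000 and chr9:35300001-35310000 of the mm10 assembly. They are 3 of the 24351 windows of this size that held any junction, and they held 6359 of the 148726 junctions deposited for the series, 2933 on chromosome 2, 2763 on chromosome 14 and 663 on chromosome 9. The windows were chosen by their junctions in the 6 libraries made with a Cas9-induced bait, as windows with at least 20 such junctions at a distance of over 10 kb from any AsiSI motif and over 5 Mb from the bait. By that rule they held 747, 650 and 180. With junctions in telomeric reads kept, 79 windows of the genome met it. With these set aside 9 did, and the other 6 lie at the centromeric ends of chromosomes 9 and 12. Counted without telomeric reads, the member of the 9 with the fewest held 47 such junctions and the highest window left out, chr17:39840001-39850000, held 17. Since junction numbers in the Cas9 libraries made the choice, these numbers are a description, and all tests below rest on libraries of AsiSI-MEFs.

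High-throughput genome-wide translocation sequencing (HTGTS) records which sequences, the prey, were joined to 1 chosen broken end, the bait, next to which its primers sit. It was run on 32 libraries of mouse embryonic fibroblasts (MEFs), all labelled C57BL/6 and WT. In 26 libraries the cells were AsiSI-MEFs, a line with an inducible AsiSI enzyme, which cuts GCGATCGC motifs across the genome. These cells had 3 µg/ml doxycycline for 24 h to make the enzyme, with 4OHT (4-hydroxytamoxifen, 1 µg/ml) present in the final 6 h to move it into the nucleus. In the other 6, WT MEFs received a guide RNA for 1 site, 48 h before lysis, and the bait was cut by Cas9 at the place of the AsiSI bait. The labels of these 6 also name 4OHT. In AsiSI-MEFs, 6 libraries had 100 µM CK-666, an inhibitor of the ARP2/3 actin nucleator, and 6 its vehicle, dimethylsulfoxide (DMSO). Another 3 had 10 µM NU7441, an inhibitor of the repair kinase DNA-PKcs, from 1 h before 4OHT, and 3 had DMSO. Wiskostatin, an inhibitor of N-WASP, was given at 3 µM to 2 libraries against 2 with DMSO. Actin R62D-NLS, a mutant nuclear actin that does not polymerize, came from a plasmid transfected 24 h before induction in 2 libraries against 2 with empty vector. The Cas9 libraries were 3 with CK-666 and 3 with DMSO. The labels number the replicates without naming separate cultures, and the study calls those of the CK-666, NU7441, wiskostatin and actin experiments biological. P-values measure the spread between these libraries.

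The number of junctions deposited per library ran from 362 to 18428, the median being 4282, and the libraries came from 6 sequencing runs. Pairs 1 and 2 of the NU7441 experiment made up run 3. All 6 Cas9 libraries were in run 5 with 1 wiskostatin pair, so bait type and run cannot be fully told apart. No read name occurred in 2 libraries. Shares below are of the junctions more than 10 kb from the bait, of which there were 335 to 17479 per library.

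Major satellite is the tandem repeat that fills the blocks of heterochromatin beside mouse centromeres. Mouse chromosomes have their centromere at the start of the numbered sequence, and reference assemblies hold a small part of those blocks, mostly as gaps. Short copies of the repeat also lie far from the centromere. How the aligner placed reads that match several copies could not be checked from the sources used here.

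The windows are shown first by their repeat, since nearly all of their prey lay in it. An array of the repeat at the centromeric end of chromosome 9, chr9:3000001-3040000, matched itself best at a shift of 234 bases, at which 69.4% of its bases were identical. BLAST found stretches like this array in each of the 3 windows. Below is 1 unit of 234 bases from each window, read from GRCm38.p6 on the plus strand, at chr9:35305226-35305459, chr2:98666648-98666881 and chr14:19418762-19418995. In the units of chromosomes 2 and 14, capitals mark the bases that differ from the unit of chromosome 9, which are 14 and 15 bases, an identity of 94.0% and 93.6%. The last sequence is the bait, chr2:13271301-13271340, with the AsiSI motif in capitals.
chr9 unit: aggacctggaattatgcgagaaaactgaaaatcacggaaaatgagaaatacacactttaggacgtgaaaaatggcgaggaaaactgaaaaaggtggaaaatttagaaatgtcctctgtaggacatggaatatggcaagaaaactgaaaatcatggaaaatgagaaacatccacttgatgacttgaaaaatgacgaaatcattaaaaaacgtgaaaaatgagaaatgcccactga
chr2 unit: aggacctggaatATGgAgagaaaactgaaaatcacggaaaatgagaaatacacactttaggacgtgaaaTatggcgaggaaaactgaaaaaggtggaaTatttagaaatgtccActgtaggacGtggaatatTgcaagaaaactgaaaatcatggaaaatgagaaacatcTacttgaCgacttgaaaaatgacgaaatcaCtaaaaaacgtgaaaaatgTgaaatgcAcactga
chr14 unit: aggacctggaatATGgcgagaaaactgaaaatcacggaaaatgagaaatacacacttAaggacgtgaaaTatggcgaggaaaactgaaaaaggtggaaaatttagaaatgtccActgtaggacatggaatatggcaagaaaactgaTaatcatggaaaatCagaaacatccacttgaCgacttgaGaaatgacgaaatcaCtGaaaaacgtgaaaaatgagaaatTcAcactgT
bait: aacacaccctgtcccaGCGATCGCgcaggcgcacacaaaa

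Within each window the prey was held by the repeat. On chromosome 9 all 663 junctions fell in 1 tract of 402 bp, chr9:35305206-35305607, which takes up 4.02% of the window. On chromosome 14, 2762 of 2763 fell in 1 tract of 4034 bp, chr14:19415669-19419702, or 40.3% of the window, and the other junction lay 1 bp beyond its end. The window on chromosome 2 has 4 tracts with 1836 bp in all, 18.4% of it, which held 96.8% of its junctions. The last of them, chr2:98666545-98667332, held 2252 junctions in 788 bp, or 76.8%. The first, chr2:98662232-98662640, held 222 in 409 bp, the second, chr2:98662816-98662995, held 211 in 180 bp, and the third, chr2:98663634-98664092, held 153 in 459 bp. The 95 junctions outside lay up to 1125 bp from a tract. The tracts were AT-rich, with a GC content of 34.2% to 36.8% against 37.1% to 42.4% for the windows.

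**Figure D1:**
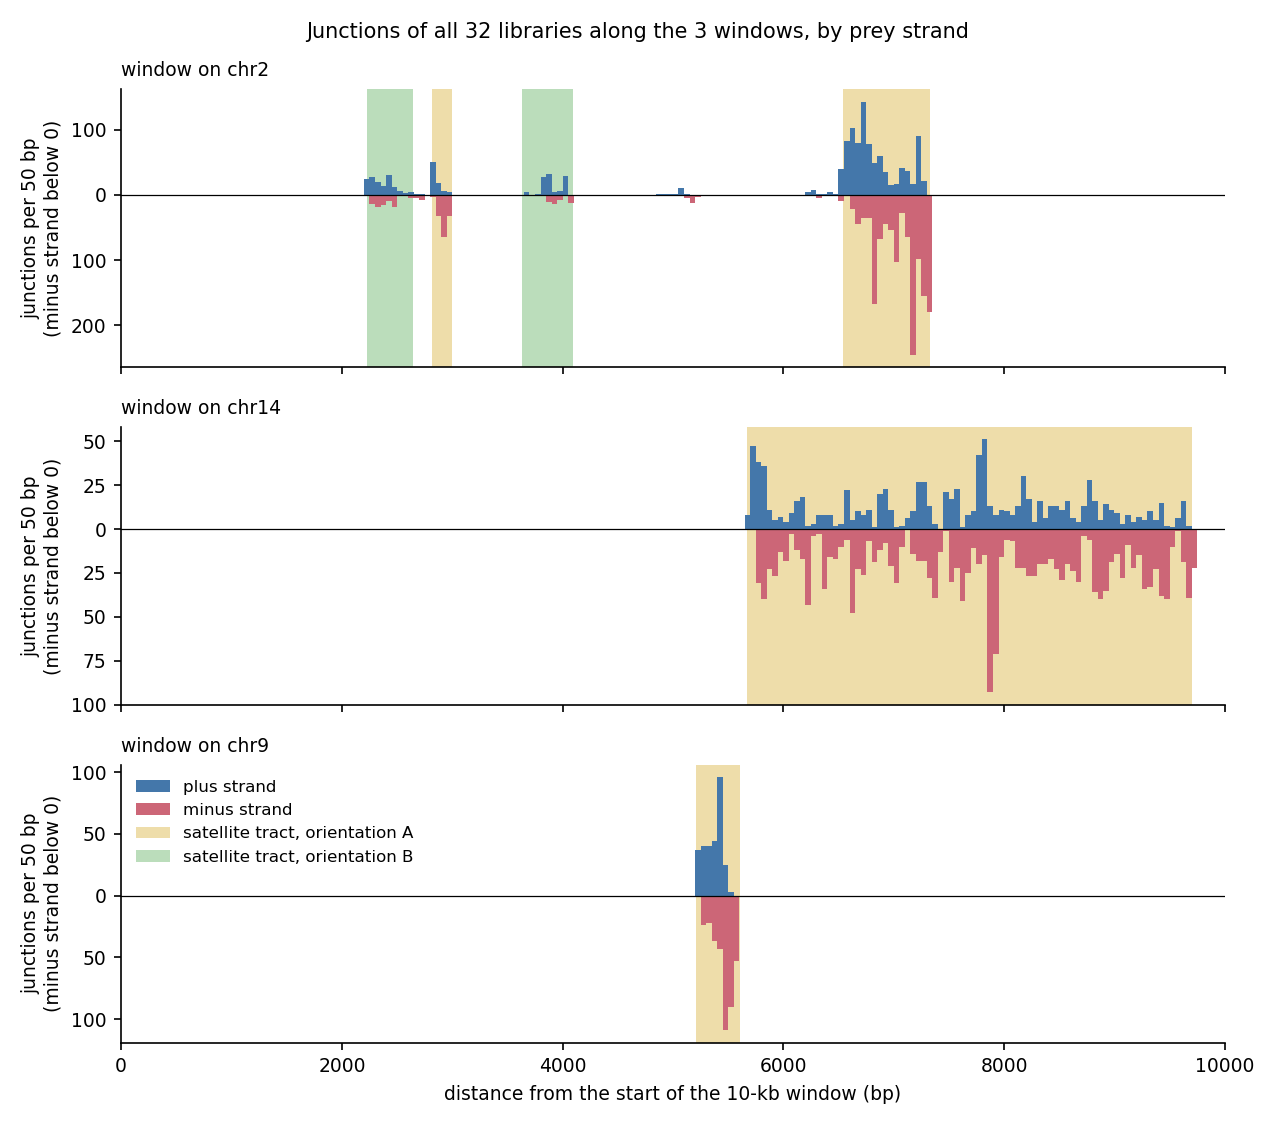
Junctions of all 32 libraries in bins of 50 bp (y axis, plus-strand prey above 0 and minus-strand prey below) against the distance from the start of each window (x axis, bp). Shading marks the satellite tracts, in orientation A (as the printed units) or B (the reverse), and nearly all junctions lie inside it, 76.8% of those on chromosome 2 in its last tract.

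The prey lay away from AsiSI motifs. On chromosome 2 the nearest motif, chr2:98655122-98655129, was 7.10 to 12.2 kb from the junctions, and 624 junctions lay within 10 kb of it, so the full count of the Cas9 libraries there was 882 rather than 747. The nearest motif was at least 1145 kb away on chromosome 14 and at least 3622 kb away on chromosome 9. The window on chromosome 2 is 85.4 Mb from the bait, on the same chromosome.

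A search of all placed chromosomes with the printed chromosome 9 unit (BLAST, E-value at most 1e-10) gave 31 satellite tracts on 17 chromosomes, 83750 bp in all. The 5 in these windows, where 2 neighbouring tracts of chromosome 2 were merged, made up 6100 bp, or 7.28% of the satellite sequence, and held 6282 of 8852 satellite junctions, 71.0%. That was 1030 junctions per kb, summed over 32 libraries. Tracts at centromeric ends held 51.3 per kb over 45273 bp, and 21 other interior tracts held 246 junctions, 7.60 per kb, from 0 to 42 a tract. Without the 4 tracts of chromosome X, these others held 224 junctions, 40.5 per kb. The densest of them, chr4:70378117-70378254, stood at 304 per kb, near the lowest tract of the windows, the third of chromosome 2, at 334 per kb. The last tract of chromosome 2 stood at 2854 per kb, chromosome 9 at 1718 per kb and chromosome 14 at 686 per kb.

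Density and likeness to the unit can be set side by side for these tracts. The best alignment in the 5 tracts of the windows had 91.0% to 99.6% identity, the highest being the tract that supplied the unit. Outside the windows, a tract of 255 bp at chr12:3109867-3110121, with a best identity of 96.2%, held 1220 per kb. The array on chromosome 9, with 95.1% in its best alignment, held 49.8 per kb over 38417 bp. A tract of 151 bp at chr13:77438907-77439057, with a best identity of 94.0% and a mean of 87.4%, held 219 per kb. The 4 tracts of chromosome X had best identities of 73.0% to 78.3% and held 22 junctions in 26844 bp, 0.820 per kb. By mean identity over their alignments they stood at 70.5% to 71.7%, against 79.1% to 84.3% for the tracts of the windows. Since the unit came from 1 of the windows and the windows were chosen for their junctions, this is a description of where prey was placed.

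**Figure D2:**
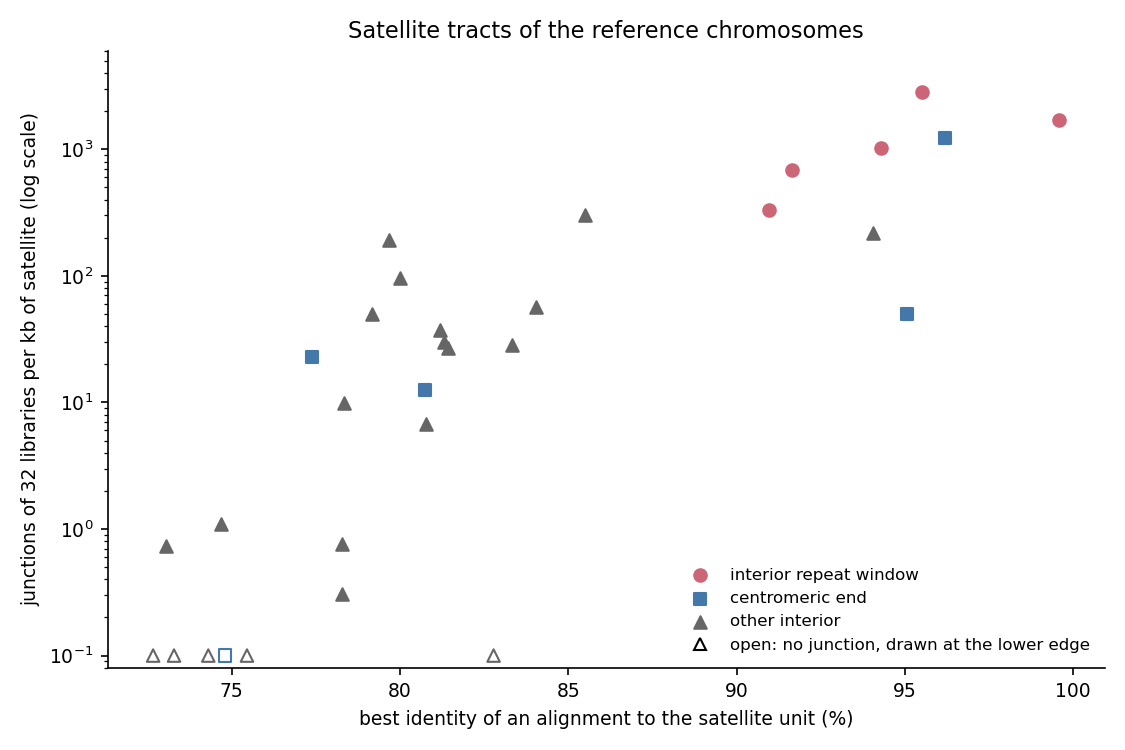
Junctions per kb of satellite sequence, summed over 32 libraries (y axis, log scale), against the best identity of any alignment in the tract to the chromosome 9 unit (x axis, %), for the 31 tracts of the placed chromosomes. Circles are tracts of the 3 windows, squares those at centromeric ends and triangles other interior tracts, and tracts without a junction are drawn open at the lower edge.

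The tracts overlap annotated gene models. Gm10800 (chr2:98666547-98667301, minus strand) and Gm10801 (chr2:98662237-98664083, plus strand) are annotated as protein coding and lie over the tracts of chromosome 2. They held 2070 and 586 junctions, 1814 and 311 of them in exons. On chromosome 14, Gm21738 (chr14:19415857-19418930, minus strand, protein coding) held 2073 junctions, 486 in exons and 1587 in introns. On chromosome 9 all 663 junctions lay in an intron of Gm33838 (chr9:35301722-35307599, minus strand), a long intergenic non-coding RNA.

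How firmly a junction is placed in a window was described by how often its sequence occurs. The first 31 bases of the prey, as the reference gives them, occurred once in the assembly for 41.6% of junctions in the windows, against 76.0% of other distal prey, which is prey more than 10 kb from any motif and outside the repeat windows, and 98.1% of prey within 500 bp of a motif. By window the share was 30.5% on chromosome 2, 50.6% on chromosome 14 and 53.1% on chromosome 9. For prey at centromeric ends it was 25.6%.

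Pooled over libraries, the reads also differed from the reference more often in these windows. Aligned prey bases mismatched the reference at 5.28% in AsiSI libraries and 5.69% in Cas9 libraries, against 1.39% and 1.82% for other distal prey and 0.543% for AsiSI prey within 500 bp of a motif. The mismatch rate was higher than that of other distal prey in 17 of the 20 AsiSI libraries with at least 10 junctions in the windows and in 6 of 6 Cas9 libraries. The rate was lower in AsiSI DMSO replicate 1 of run 1 (1.38% against 4.07%). In run 3 it was lower in NU7441 replicate 1 (4.08% against 4.78%) and NU7441 control replicate 2 (2.26% against 4.70%). Run means were 3.42% in the windows (3 libraries) against 5.27% for other distal prey (4 libraries) in run 1. They were 3.50% (3 libraries) against 4.16% (4 libraries) in run 3, and 3.89 to 5.67% against 0.982 to 1.58% in runs 2, 4 and 5. The mismatch rate was higher on chromosome 14 than on chromosome 2 in all 13 AsiSI and 6 Cas9 libraries that could be compared, with pooled rates of 6.53% and 4.06% in AsiSI libraries. Prey at centromeric ends mismatched at 5.39% and 6.03%. Whether the prey came from these copies of the repeat or from others, in or outside the assembly, was not tested.

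Prey in the windows was found in 31 of 32 libraries, at shares that differed widely between libraries with the same treatment. With DMSO in the CK-666 experiment, the 3 windows held 1.06, 4.60, 10.4, 7.69, 0.632 and 6.96% of junctions in replicates 1 to 6. With CK-666 they held 1.61, 0, 16.2, 3.22, 1.62 and 7.92%, and the groups overlapped. The 0 is 0 of 335 junctions, which allows a share of up to 0.896% by a floor of 3 counts and 1.13% by the upper 95% Wilson limit. NU7441 libraries stood at 17.8, 0.615 and 0.551% and their controls at 17.1, 2.33 and 1.15%, so that replicate 1 of both was far above the others.

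All 4 libraries of the actin experiment were below 0.25%, and the wiskostatin experiment ranged from 0.165 to 2.13%. Wiskostatin libraries held 0.165 and 0.576% and their controls 2.13 and 0.739%. Actin R62D-NLS libraries held 0.10 and 0.249%, from 5 and 4 junctions, and those with empty vector 0.212 and 0.10%, from 17 and 1. Over the 26 AsiSI libraries the share averaged 4.06% (median 1.38%), and it was up to 39.6% of distal prey in a library.

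Among Cas9 libraries, all of which came from 1 run, the shares with DMSO were 18.6, 8.08 and 5.30%. The CK-666 libraries held 10.4, 5.53 and 5.57%, and the 6 together had a mean of 8.91%. As a share of distal prey alone, the mean was 9.27% with Cas9 and 13.6% with AsiSI. The order of the bait types thus turned with the denominator, and neither was tested, since Cas9 counts chose the windows. Within run 5 the 2 AsiSI libraries, both of the wiskostatin experiment, were below all 6 Cas9 libraries.

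**Figure D3:**
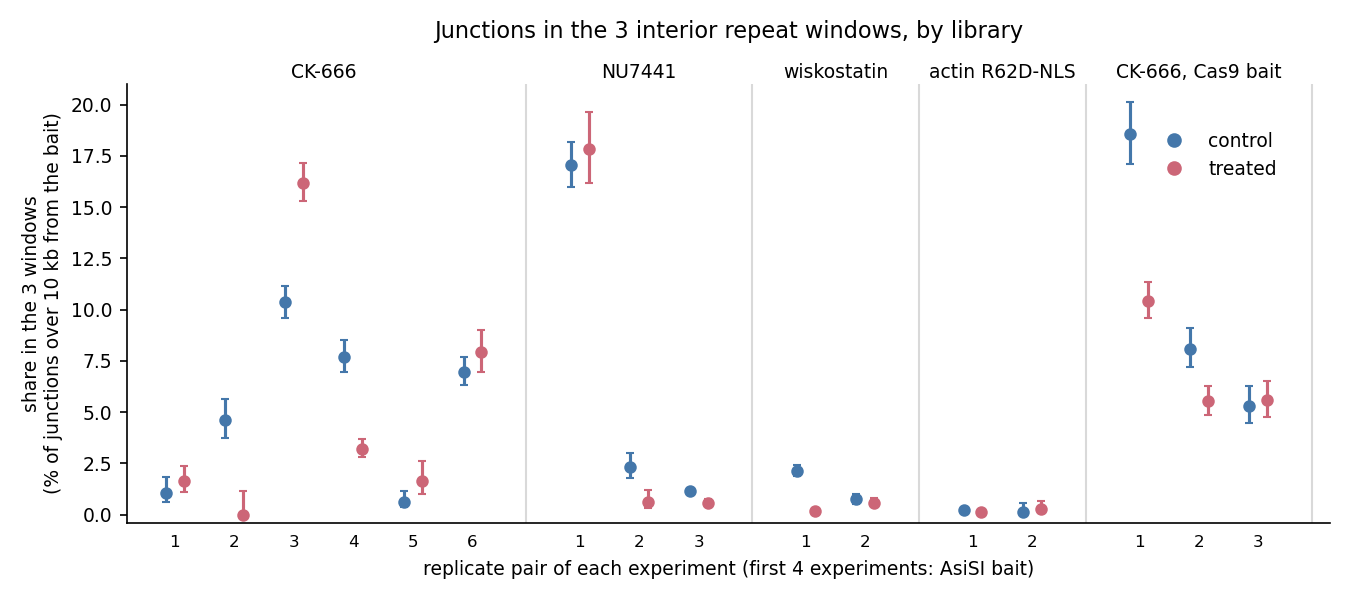
Share of junctions in the 3 windows (y axis, % of junctions more than 10 kb from the bait) for each library, by replicate pair and experiment (x axis), with 95% Wilson intervals that cover counting error only. Control and treated libraries overlap in each experiment other than wiskostatin, where both treated points, 0.165 and 0.576%, lie below both controls.

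The part of the interior prey that each window took varied between libraries. In the 26 libraries with at least 10 such junctions, chromosome 2 held 25 to 80% (median 48.6%), chromosome 14 held 17.1 to 63.6% (median 40.9%) and chromosome 9 held 2.86 to 23.1% (median 10.3%). The make-up moved with the run. Chromosome 14 averaged 47.7% in run 2 and 44.9% in run 3, and 30.9% in run 4 and 33.2% in run 5, where chromosome 2 averaged 59.5% and 57.0%. The part of run in this was not tested.

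The ratio of interior prey to prey at centromeric ends varied less than the shares did. In the 17 libraries with at least 10 junctions of each, the windows held 1.74 to 5.73 junctions for each one in the 6 centromeric-end windows. The ratio was 2.90 ± 0.84 (SD, n = 11) in AsiSI libraries and 4.83 ± 0.68 (SD, n = 6) in Cas9 libraries. By run it averaged 2.85 in run 2, 1.81 in run 3, 4.12 in run 4 and 4.83 in run 5. The 2 AsiSI libraries of run 4 were thus near the Cas9 libraries.

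For the 3 windows summed, no mean effect of a treatment on the share was larger than the SD between pairs. With CK-666, the log2 ratio of treated to control share was 0.58, −4.96, 0.64, −1.26, 1.34 and 0.19 in the 6 pairs, higher in 4 and lower in 2. Its mean was −0.58 ± 2.31 (SD, n = 6 pairs), with p = 0.78125 in an exact 2-sided sign-flip test over pairs, where 0.03125 is the smallest p possible. The lowest value belongs to the pair with 0 junctions and depends on the pseudocount of 0.5. Without that pair, replicate 2, the mean was 0.30 and within run 2 it was 0.23, so the sign of the mean rests on it.

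With NU7441 the log2 ratios were 0.07, −1.85 and −1.04, a mean of −0.94 ± 0.96 (SD, n = 3 pairs). The exact sign-flip test gave p = 0.5 and cannot go below 0.25. On chromosome 14 alone the log2 ratios were −0.03, −2.38 and −1.27, a mean of −1.23. The centromeric-end windows had −0.03, −1.75 and −1.20, a mean of −0.997. With wiskostatin the ratios were −3.59 and −0.35, and with actin R62D-NLS −0.99 and 0.90, and no test was made on 2 pairs. With CK-666 and the Cas9 bait they were −0.83, −0.55 and 0.07, given as a description.

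The windows were also read from fits over all 10-kb windows with at least 10 junctions. Of 284 windows, limma called 0 with CK-666 at an adjusted p under 0.05 (0% called), and 5 had an unadjusted p under 0.05. The log2 change was −0.61 (SE 0.41) on chromosome 14, −0.24 (SE 0.45) on chromosome 2 and 0.25 (SE 0.39) on chromosome 9, each with an adjusted p of 0.987. These SEs are moderated by limma with the spread of all windows. From the 6 pairs alone they were 0.72, 0.81 and 0.58, in the same order. With NU7441, 8 of 322 windows were called by limma (2.48% called), 6 lower and 2 higher, and none of the 3 windows was among them. An unadjusted p under 0.05 was found for 55, or 17.1%, with the window on chromosome 14 among these. Chromosome 14 had a log2 change of −1.23 (SE 0.47, adjusted p = 0.128), chromosome 2 one of −0.71 (SE 0.51, adjusted p = 0.477) and chromosome 9 one of −0.64 (SE 0.40, adjusted p = 0.410). From the 3 NU7441 pairs alone the SEs were 0.68, 0.48 and 0.35. None of the 3 was called in any alternative with windows of this size.

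The junction, as read from the alignments, differed from that of other distal prey. The part of the mismatch rate and of the many repeat copies in this was not tested. Bait and prey can share bases at the junction, called overlap or microhomology, can meet with none, or can be parted by inserted bases. The paper takes microhomology as a sign of alternative end joining, and blunt joins or very short overlaps as one of classical end joining. Inserts are often left by end joining with a polymerase. In 12 AsiSI control libraries with at least 10 junctions of each kind, the mean overlap of junctions without an insert was 0.556 nt at the lowest, 1.25 at the median and 1.70 nt at the highest in the windows. For other distal prey it was 1.87, 3.28 and 7.36 nt. The windows were lower in 12 of 12 libraries, at 1.24 ± 0.28 against 3.52 ± 1.66 nt (SD, n = 12), a difference of −2.29 nt (exact sign-flip test, p adjusted over 6 feature comparisons = 0.00146). Its size varied by run, being −3.15 nt over 2 libraries of run 1, −3.87 over 4 of run 2 and −1.41 over 2 of run 3. It was −0.695 nt over 3 libraries of run 4 and −0.774 in 1 of run 5. Run means were 0.942 to 1.38 nt in the windows and 1.98 to 5.25 nt for other distal prey. Against prey at centromeric ends, the overlap in the windows was 1.24 against 1.11 nt in 7 libraries, higher in 6, a difference of 0.125 nt (exact sign-flip test, adjusted p = 0.0375). That call was lost without any one of 6 of the 7 libraries (AsiSI DMSO replicates 2, 3, 4 and 6 and NU7441 control replicates 1 and 3), with a difference of 0.106 to 0.130 nt and an adjusted p of 0.075 in the exact test. Over 9 libraries with at least 5 junctions the difference was 0.0250 nt.

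Long overlaps, of 6 nt or more, were rare in the windows. They occurred in 19 of 4647 AsiSI junctions of the windows, 0.409%, and 0.350% of Cas9 junctions, against 16.4% and 7.92% of other distal prey. The longest in the windows was 14 nt. Direct joins with no shared base made up 18.1% in AsiSI and 30.3% in Cas9 libraries, close to the 16.8% and 28.4% of other distal prey. Interior prey reads were longer, with a median of 84 bases against 64 for other distal prey in AsiSI libraries and 140 against 78 with Cas9, and the bait end lay within 5 bp of the cut in 89.8% and 89.4% of interior junctions against 70.2% and 72.8%. Their part in the overlap was not tested.

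Inserted bases were common in the windows. In the 12 control libraries 9.09% of interior junctions had an insert at the lowest, 30.95% at the median and 44.7% at the highest, against 10.8, 17.0 and 36.03% for other distal prey. The means were 32.1% ± 10.4 and 21.01% ± 10.5 (SD, n = 12), a difference of 11.1 percentage points, higher in 8 of 12 libraries (exact sign-flip test, adjusted p = 0.0375). With each position and strand counted once per library it was 9.43 points and did not pass (exact sign-flip test, adjusted p = 0.075). The difference went both ways by run, being −8.01 points over 2 libraries of run 1, −0.502 over 2 of run 3, 17.8 over 4 of run 2, 21.6 over 3 of run 4 and 14.1 in 1 of run 5. It lost its call without any one of 7 libraries (AsiSI DMSO replicates 3, 4 and 6, NU7441 control replicate 3, empty vector replicate 1 and both wiskostatin controls), at 9.53 to 10.8 points and an adjusted p of 0.0504 to 0.075 in the exact test. Against centromeric ends the share was 36.9% against 41.0%, a difference of −4.17 points that did not pass (7 libraries, exact sign-flip test, adjusted p = 0.390625).

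Longer inserts in the windows often held satellite sequence. Of interior inserts of at least 15 bases, 303 of 442 held a run of 12 bases found in the satellite array, 68.6%. At centromeric ends 71 of 94 did, 75.5%, against 67 of 1739 or 3.85% for other distal prey and 3 of 2442 or 0.123% for prey within 500 bp of a motif. The share was similar with the AsiSI bait, 69.0%, and with Cas9, 67.3%. Most inserts were shorter, with a median of 4 bases.

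**Figure D4:**
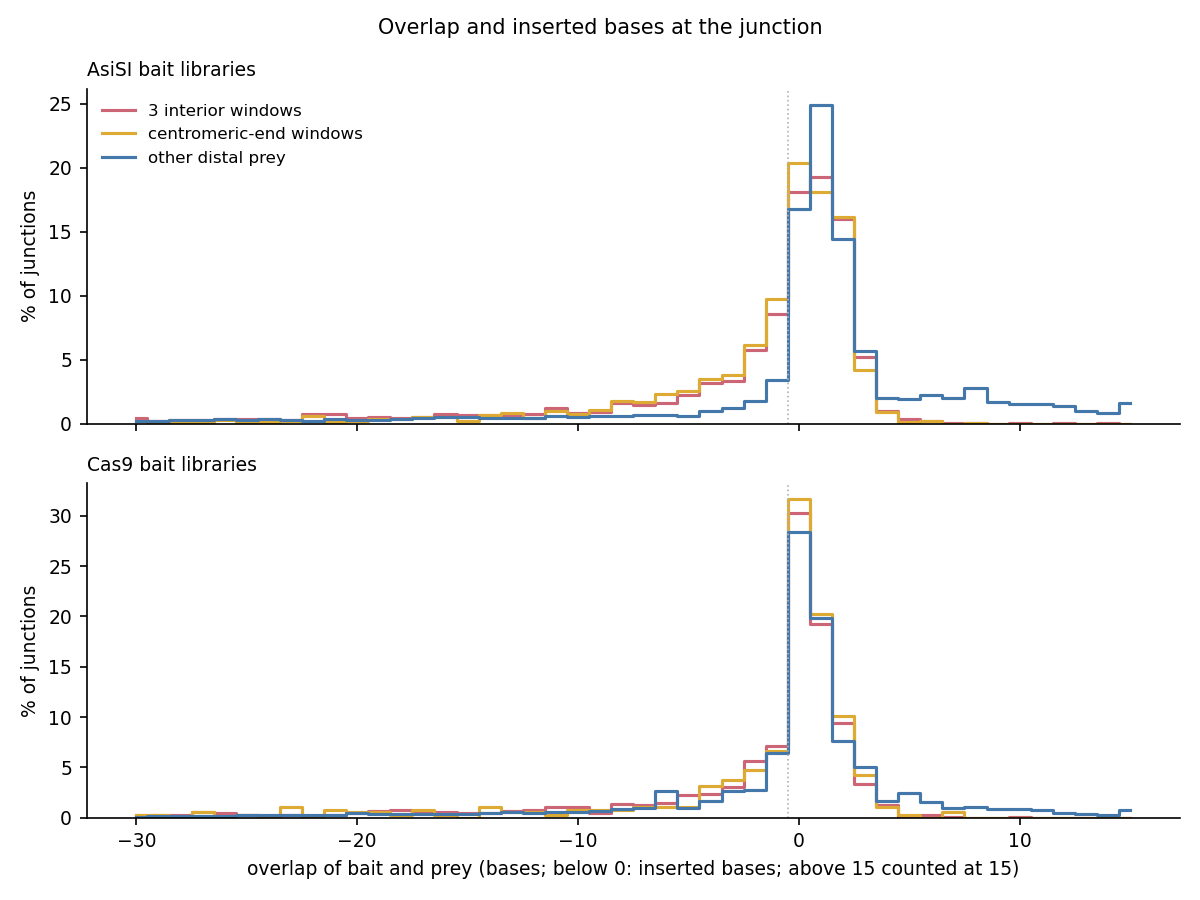
Percent of junctions (y axis) by overlap of bait and prey in bases (x axis, below 0 for inserted bases, above 15 counted at 15), pooled over AsiSI libraries (top) and Cas9 libraries (bottom). Prey of the 3 windows and of centromeric ends follows nearly the same line, with 0.409% and 0.216% of AsiSI junctions at 6 or more bases against 16.4% for other distal prey.

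In the Cas9 libraries the same features were described without a test. Junctions of the windows had a mean overlap of 0.941 nt against 2.03 nt for other distal prey, an insert share of 34.6% against 24.8%, and a plus-strand share of 43.6% against 50.1% (means of 6 libraries). The mean overlap was lower in all 6 and the insert share higher in 4. In the other 2, CK-666 replicate 2 and DMSO replicate 2, other distal prey had inserts in 43.8% and 50.2%. Without telomeric reads, 11781 of the 16531 other distal junctions of the Cas9 libraries were left, and their pooled insert share was 12.6% in place of 26.8%, against 35.8% in the windows.

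Prey in the windows ran more often along the minus strand of the genome, that is, the read left the junction toward lower coordinates. In 12 AsiSI control libraries the plus-strand share was 16.7% at the lowest, 38.4% at the median and 44.2% at the highest, and for other distal prey 47.6, 50.4 and 51.4%. The ranges did not overlap, and the difference was −13.2 points (36.8% against 50.02%, exact sign-flip test, adjusted p = 0.00146). The array at the centromeric end of chromosome 9 reads in reverse to the printed units, so there genome strand and direction on the repeat differ. Prey at centromeric ends leaned to the plus strand of the genome, with 66.5% against 38.3% in the windows in 7 libraries. That was a difference of −28.2 points, the windows being lower in all 7 (exact sign-flip test, adjusted p = 0.03125). Without any one of AsiSI DMSO replicates 3, 4 and 6 and NU7441 control replicate 3, the difference was −27.5 to −31.9 points with an adjusted p of 0.0625 in the exact test. Every library left was still lower. The exact test thus stood at the smallest p that 6 libraries allow, 0.03125 before adjustment, and cannot show a weakening. In 8 treated AsiSI libraries, which took no part in these tests, the windows differed from other distal prey by −3.38 nt in overlap and −11.7 points in plus-strand share (exact sign-flip test, adjusted p = 0.0234 for both). The insert share did not pass in these 8 libraries, at 10.4 points (exact sign-flip test, adjusted p = 0.234).

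The leading strand of each tract went with the direction of its repeat. The first and the third tract of chromosome 2 lie in the reverse direction to the other 4, which read like the printed units on the plus strand. In those 2 tracts plus-strand prey led, with 63.1% of 222 and 67.3% of 153 junctions. In the other 4 it was minus-strand prey, with 63.0% in the second and 59.7% in the last tract of chromosome 2, 64.4% on chromosome 14 and 57.0% on chromosome 9. Pooled over all libraries, prey thus ran more often against the printed unit in all 6 tracts. By library, over 50% ran against it in 20 of 20 AsiSI libraries with at least 10 junctions in tracts, at 65.1% ± 8.49 (SD, n = 20) and from 51.7 to 83.5%, and in 5 of 6 Cas9 libraries, at 56.3% ± 4.64 (SD, n = 6) and from 47.8 to 61.1%. Prey at centromeric ends, placed by its own read sequence, ran against the unit in 70.2% of AsiSI and 61.97% of Cas9 junctions. Read in the same way, prey of the windows did so in 63.5% and 56.6%. This pattern was noticed after the values were seen and has no test.

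**Figure D5:**
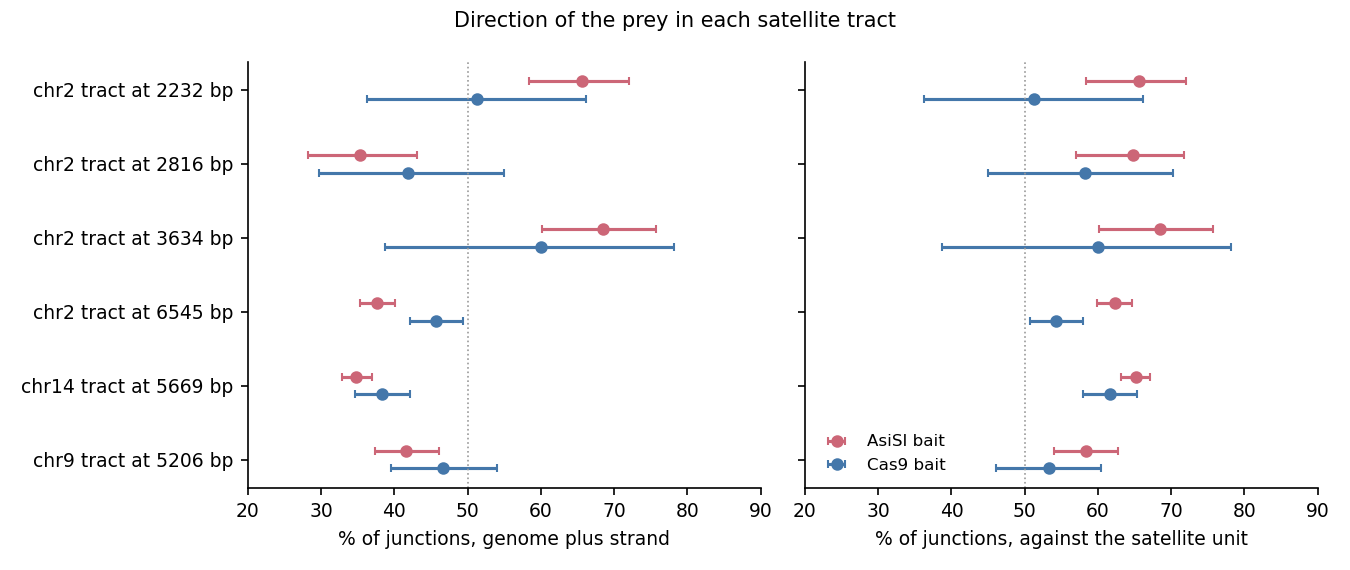
Share of junctions (x axis, %) on the plus strand of the genome (left) and against the direction of the printed satellite unit (right) for the 6 tracts (y axis, named by their distance in bp from the start of the window), with 95% Wilson intervals, pooled over libraries of each bait. On the left the first and the third tract of chromosome 2 lie apart from the other 4, and on the right all 12 points lie above 50%.

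Many positions were hit more than once. The 6359 junctions fell on 3378 distinct positions and strands, of which 2080 were seen once and 1203 in at least 2 libraries. The latter held 4085 junctions, 64.2%, and 9 positions were seen in at least 10 libraries. Within a library 687 junctions, 10.8%, repeated a position and strand already seen, and 134 of these also had the same bait end and overlap. Averaged over libraries the repeated share was 6.46% in the windows with the AsiSI bait (n = 20), against 3.77% for other distal prey and 26.2% for prey within 500 bp of a motif (n = 26). With Cas9 it was 7.21% in the windows and 11.8% for other distal prey (n = 6). Repetition was denser on chromosome 2, with 2.27 junctions per position, and chromosome 9, with 2.03, than on chromosome 14, with 1.57. Since repetition grows with the number of junctions, which the choice of windows used, it has no test.

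The most repeated positions carried inserts. Of junctions at a position seen once, 31.4% had inserted bases, and at positions with 2 to 4, 5 to 9 and at least 10 junctions the share was 35.0, 41.7 and 84.4%, the last over 475 junctions. The leading position of chromosome 2, 98667332, is the last base of its last tract. It held 52 minus-strand junctions from 14 libraries, 35 AsiSI and 17 Cas9, at most 9 from 1 library, and 94.2% had an insert. Position 98666549, 4 bp inside the other end of that tract, held 35 plus-strand junctions from 14 libraries, 97.1% with an insert. On chromosome 9, position 35305591, 16 bp from the end of the tract, held 25 minus-strand junctions from 12 libraries, all with an insert. The leading position of chromosome 14, 19419702, is also the last base of its tract, beside unknown bases of the assembly, and held 21 junctions from 10 libraries. The 30 bases on either side of the first 3 are shown on the plus strand, at chr2:98667303-98667362, chr2:98666519-98666578 and chr9:35305562-35305621, with the side that the prey read covers in capitals.
chr2 98667332: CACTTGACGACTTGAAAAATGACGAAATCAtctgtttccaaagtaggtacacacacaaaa
chr2 98666549: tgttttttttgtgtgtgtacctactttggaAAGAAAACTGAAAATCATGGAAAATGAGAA
chr9 35305591: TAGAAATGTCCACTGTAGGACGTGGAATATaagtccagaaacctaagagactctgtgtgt

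At these tract ends the prey read began at or near the edge of the tract and ran inward, in most cases after inserted bases. Of the 49 inserts at the leading position of chromosome 2, 13 had at least 15 bases, and 10 of these held a run of 12 satellite bases. On chromosome 9, 12 of 14 such inserts at position 35305591 did. The other named positions were 98667033 on chromosome 2 (46 junctions, minus strand), 19416238 and 19417537 on chromosome 14 (14 each, minus strand), and 35305216 (16, plus strand) and 35305507 (14, minus strand) on chromosome 9. In these 5, 85.7 to 100% of junctions had an insert. In the last tract of chromosome 2, 111 junctions lay within 5 bp of a tract end and ran inward from it. Of these 86.5% had an insert, against 32.6% of all other junctions in the tract.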

How the data were processed

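Per the labels and the methods, the authors sheared DNA, enriched bait fragments with nested primers, read them on a MiSeq and placed the reads on mm10 by the Burrows-Wheeler Aligner. Default filters of the HTGTS pipeline removed duplicates and reads of mapping quality up to 30. The submitters' processing notes name mm10 and hg19. Each deposited table holds 1 library with 1 line per junction, whose values are positions, strands and read coordinates, with no normalization. The authors scale to bait-only sequences, not used here. The 12 Hi-C samples of the 44 were not analysed here.

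Windows and comparison lists were chosen with earlier results of these data known. The rule for named items gave the 3 windows, every gene overlapping them, the 3 positions and strands with the most junctions in each, and the other windows that met the choice rule. That rule had foreseen 8 windows at centromeric ends, and 6 met it with telomeric reads (at least 3 repeat units) set aside. Telomeric reads otherwise stay in. The 1109 AsiSI motifs are those of GRCm38.p6. Overlap is the number of read bases shared by bait and prey. Satellite tracts came from BLAST+ 2.17.0 and genes from GENCODE vM21.

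Shares used a pseudocount of 0.5 on the log2 scale and exact 2-sided sign-flip tests over pairs or libraries (smallest p 0.03125 with 6 pairs), with Benjamini-Hochberg adjustment over 6 feature comparisons. Windows were fitted with limma 3.58.1 (R 4.3.3) with a mean-variance trend and the pair as a factor. Tested on simulated data, it called 23 of 36 windows given a log2 change of 2 in the CK-666 layout (284 windows) and 15 of 40 in the NU7441 layout (322 windows). The simulated counts had the same dispersion in every window and no library effect other than depth. They do not give the power for the 3 windows, whose CK-666 log2 ratios had an SD between pairs of 1.99 (chromosome 2), 1.77 (chromosome 14) and 1.43 (chromosome 9). Pairs share replicate numbers and the study scales treated to control within a replicate. Same-numbered libraries correlated (1-Mb bins, deviations from group means) at 0.191 to 0.527 for NU7441 and 0.332 to 0.779 for Cas9. Depth was 362 to 18428 junctions per library, and 95% Wilson intervals and floors of 3 counts cover counting error only. Python 3.11.15, pandas 2.3.3, numpy 2.4.6, scipy 1.17.1, pysam 0.24.0 and matplotlib 3.10.9 were used.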

Additional observations from a re-analysis of the deposited data

Results flagged for a closer look

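Junctions also lay in satellite tracts of chromosome interiors outside the 3 windows. Above they enter the tract densities, and those more than 10 kb from any motif also count among other distal prey. They were 246 over 32 libraries, in 16 of 21 tracts, with 219 from AsiSI and 27 from Cas9 libraries. The highest tract held 42 junctions in 138 bp, from 14 libraries.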

How the results depend on the processing

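Over 13 results and 176 alternatives, 139 were judged the same, 28 weaker, 6 moved and 3 reversed. For tested effects, the same means that direction and side of the threshold were kept. For effects without a test it means a shift smaller than the SD between pairs, whatever the sign. For numbers of called windows it means a similar number. The mean effect of CK-666 on the share turned from −0.58 to 0.23 within run 2, and ranged from −0.96 to 0.30 when each pair was left out. Those ranges were −1.45 to −0.49 for NU7441, −3.59 to −0.35 for wiskostatin, −0.99 to 0.90 for actin R62D-NLS and −0.69 to −0.24 for CK-666 with Cas9. Without the replicate block, the exact permutation test gave p = 0.645 for CK-666 (−0.58) and p = 0.6 for NU7441 (−0.94), and no effect on the share changed. CK-666 pairs correlated at 0.0202 to 0.210, 3 of 6 best with their own number, so their numbers may not pair them. Windows called with NU7441 were 8, and 0 without the block, 0 with 100-kb windows, 2 with a pseudocount of 1, and 0, 14 and 4 without replicate pair 1, 2 and 3. With CK-666 it was 0 throughout.

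For the features, each p is from the exact sign-flip test, adjusted by Benjamini-Hochberg. With each position counted once per library, the overlap against centromeric ends was 0.112 nt and the insert share against distal prey 9.43 points (both exact p = 0.075). With at least 5 junctions that overlap was 0.0250 nt (exact p = 0.926). In the 6 DMSO libraries of the CK-666 experiment the overlap was −3.63 nt against distal prey (exact p = 0.09375) and 0.155 nt against centromeric ends (p = 0.15), the insert share 9.21 points (p = 0.25), and the plus-strand share −15.3 (p = 0.09375) and −28.2 points (p = 0.15). In the treated libraries the overlap against centromeric ends was 0.0801 nt (exact p = 0.45), the insert share 10.4 points against distal prey (p = 0.234) and 0.752 points against centromeric ends (p = 0.875), there reversed, and the plus-strand share against centromeric ends −34.2 points (p = 0.234). The comparisons with centromeric ends in these sets rest on 4 libraries each, too few for an unadjusted p under 0.05 in the exact test. The adjusted p of 0.09375 comes from 0.03125, the smallest unadjusted p that 6 libraries allow in that test. Leaving out each control library gave −2.44 to −1.98 nt and 0.106 to 0.158 nt for the overlap, 9.53 to 13.1 and −6.08 to −1.13 points for the insert share, and −13.9 to −11.6 and −31.9 to −22.2 points for the plus-strand share, against distal prey and centromeric ends. That and the comparison without telomeric junctions were chosen after seeing the data.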
